A study of Homo sapiens with 4 samples.

Results

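The kallikrein-related peptidases of human keratinocytes are described here in HaCaT cells given M5, a mixture of 5 inflammatory cytokines, and in HaCaT cells given phosphate-buffered saline (PBS). The members are KLK5 to KLK14, 10 of the 15 human kallikrein genes, found by gene name among the 27356 genes of each file. KLK9 had no row, so 9 of the 10 were measured, and 8 of these reached the mean level of 1 FPKM (counts scaled by gene length and by the library's total) over the libraries that was needed for testing. The group was put together with these M5 and PBS values already known, so they are given as a description, without p-values.

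HaCaT is an immortalised line of adult human skin keratinocytes. Per the sample titles, 2 libraries came from M5 cells and 2 from PBS cells. All were collected 72 h after treatment began at a plating density of 50%, which the titles do not state. M5 held oncostatin M, TNF-α, IL-22, IL-17 and IL-1α, with 10 μg/L of each. A tag on the M5 libraries gives their treatment as an agent abbreviated DAC, whereas titles, protocols and series text give M5, and the titles were used. The M5 libraries held 18992988 and 19749612 counts and the PBS libraries 15858644 and 16051974. No label says that replicates were separate cultures, and p-values below therefore cover only library-to-library spread, which could be technical. The 10 keratinocyte markers summed to 5926 and 5628 FPKM in M5 and to 4264 and 4203 FPKM in PBS. Marker sums of fibroblasts, melanocytes, leukocytes and endothelial cells stayed at or below 0.764 FPKM in every library, and no marker of eccrine glands or sebocytes had a row.

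Kallikreins are secreted serine proteases made as inactive precursors. In the outer epidermis the trypsin-like KLK5 and KLK14 and the chymotrypsin-like KLK7 cut the desmosomal proteins that hold corneocytes together, and KLK5 can activate itself and other family members. Their activity is restrained by the inhibitor LEKTI, the product of SPINK5, and trypsin-like members can also activate the receptor PAR2 on keratinocytes.

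The genes form 1 cluster on chromosome 19, from KLK1 to KLK14 over 265 kb (GRCh38, 50819148 to 51084245, GENCODE 29). The 10 members occupy the last 141 kb of it and are all transcribed from the minus strand. The 250 bases before the first RefSeq transcript start listed are printed for the 5 members that were more than 6-fold lower in M5, so that the control regions of the genes with the largest differences can be compared (RefSeq, GRCh38.p14, minus strand, 5′ to 3′). Capitals mark matches on either strand to an NF-kB-like pattern, GGG and CC with 5 bases of any kind between them, or to the SP1 pattern GGGCGG, and matches can overlap.
KLK5, chr19:50953039-50953288: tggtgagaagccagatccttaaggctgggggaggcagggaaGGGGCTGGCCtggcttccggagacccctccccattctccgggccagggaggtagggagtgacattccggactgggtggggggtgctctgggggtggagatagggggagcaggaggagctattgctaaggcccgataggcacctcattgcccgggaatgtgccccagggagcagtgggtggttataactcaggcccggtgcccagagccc
KLK6, chr19:50969592-50969841: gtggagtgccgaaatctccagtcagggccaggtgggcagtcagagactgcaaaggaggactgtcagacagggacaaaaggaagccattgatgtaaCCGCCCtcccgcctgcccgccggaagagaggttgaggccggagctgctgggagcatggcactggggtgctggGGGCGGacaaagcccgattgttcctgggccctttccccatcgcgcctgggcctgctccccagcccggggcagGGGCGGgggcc
KLK7, chr19:50983918-50984167: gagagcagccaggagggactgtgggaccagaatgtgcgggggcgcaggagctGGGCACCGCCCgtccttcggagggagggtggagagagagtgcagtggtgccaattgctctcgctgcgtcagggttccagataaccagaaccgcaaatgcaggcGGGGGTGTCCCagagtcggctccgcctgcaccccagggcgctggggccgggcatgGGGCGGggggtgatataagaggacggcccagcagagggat
KLK13, chr19:51065093-51065342: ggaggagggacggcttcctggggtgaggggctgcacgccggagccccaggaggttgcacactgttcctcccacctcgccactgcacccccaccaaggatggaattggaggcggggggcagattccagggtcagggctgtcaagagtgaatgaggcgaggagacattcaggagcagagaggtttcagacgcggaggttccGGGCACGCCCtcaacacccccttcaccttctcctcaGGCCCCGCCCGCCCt
KLK14, chr19:51082857-51083106: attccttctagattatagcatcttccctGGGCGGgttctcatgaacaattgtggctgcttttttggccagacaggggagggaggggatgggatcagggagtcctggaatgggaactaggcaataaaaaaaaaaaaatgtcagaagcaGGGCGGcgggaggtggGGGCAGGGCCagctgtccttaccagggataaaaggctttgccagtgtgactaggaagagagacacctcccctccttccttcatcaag
RefSeq windows were found for 9 of the 10 members, 16 windows in all. The 5 patterns were searched on both strands, and the share of all 35116 promoter windows of that length is given for each. The NF-kB-like pattern occurred in 14 of the 16 windows, against 54.4% of all promoters, and the SP1 pattern in 10 of 16, against 42.6%. The exact TATA box letters TATAAA were in 0 of the 16 windows, against 10.7% of all promoters. Variants of the TATA box were not searched, and the printed KLK5 and KLK7 windows hold TATAAC and TATAAG. The AP-1 pattern, TGANTCA, was in 0 of 16, against 6.57%. The STAT pattern, TTCNNNGAA, was likewise in 0 of 16, against 6.57%. Some windows of the same gene overlap, so the same match can be counted more than once. By gene, the NF-kB-like pattern was in 8 of 9 and the SP1 pattern in 6 of 9, each including KLK9, which had no row. Both patterns fix only G and C, and the 16 windows held 52% to 70% G and C. This content was not compared with that of all promoters. The matches are letters in a window and not binding sites.

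Every kallikrein with appreciable counts was lower in M5. The 9 members with a row summed to 30.7 and 30.5 FPKM in the M5 libraries, against 213 and 203 FPKM in the PBS libraries. In counts scaled as for the test, both M5 libraries lay below both PBS libraries in 8 of them. This held for 39.4% of all 10809 tested genes. The 8 tested members were also all in the set of genes with an adjusted p under 0.05 in edgeR's quasi-likelihood test and a level at least 2-fold lower in M5, which held 3.14% of tested genes. Since the members were chosen with this contrast known, nothing is read from these counts. Fitted differences ran from 2.22-fold (KLK8) to 14.2-fold (KLK6). KLK6, KLK11, KLK13 and KLK14 averaged under 1 FPKM in M5, so these 4 entered the test through their PBS libraries. In RNA from whole cultures, fewer cells expressing a gene and less RNA per cell cannot be told apart.

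**Figure D1:**
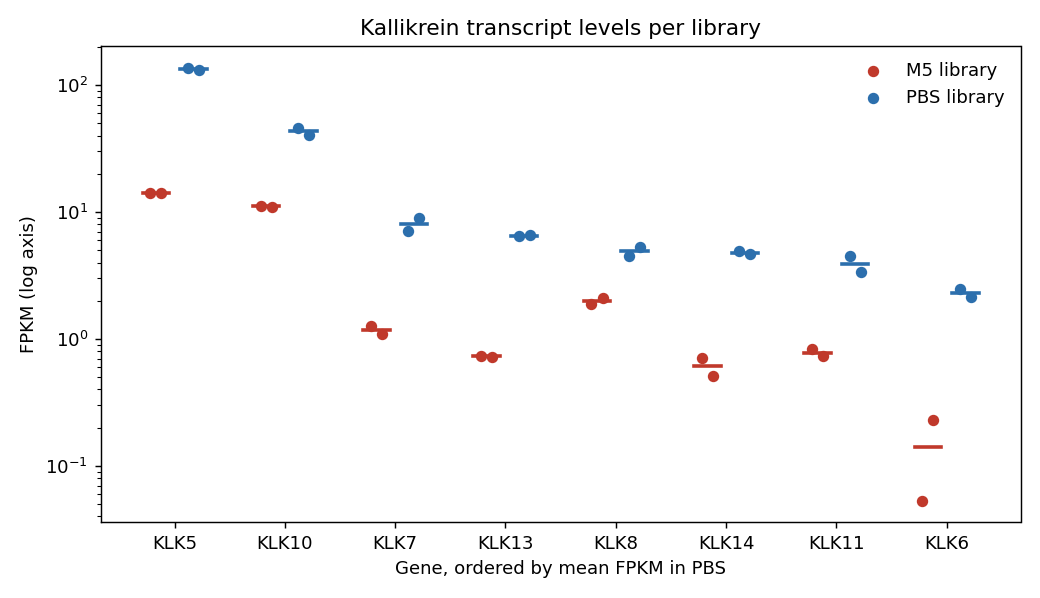
FPKM of the 8 tested kallikreins in each M5 (red, left) and PBS (blue, right) library on a log axis, with points for libraries and bars for the mean of 2. The M5 points lie below the PBS points for each gene, and KLK6 has the widest spread in M5, 0.0533 and 0.231 FPKM; KLK12, at 0 in 3 libraries, is not drawn.

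Among the desquamation proteases, KLK5 (ENSG00000167754, chromosome 19, 50943303 to 50953093) had the highest level of the family in both conditions. It measured 14.0 and 14.1 FPKM in M5, against 137 and 132 FPKM in PBS. The groups were far apart and the replicates close, and KLK5 was 8.60-fold lower in M5 (log2 fold change -3.10, SE 0.07). KLK7 (ENSG00000169035, 50976482 to 50984099), which cleaves corneodesmosin, measured 1.27 and 1.10 FPKM in M5, against 7.11 and 8.96 FPKM in PBS. It was 6.11-fold lower (log2 fold change -2.61, SE 0.19). KLK14 (ENSG00000129437, 51077495 to 51084245), a very active trypsin-like enzyme of the cornified layer, measured 0.708 and 0.511 FPKM in M5, from 16 and 12 counts, against 4.93 and 4.66 FPKM in PBS, from 93 and 89 counts. It was 7.05-fold lower (log2 fold change -2.82, SE 0.31).

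The other trypsin-like members were lower by more varied amounts. KLK6 (ENSG00000167755, 50958631 to 50969673), also known as neurosin for its abundance in brain, had 2 and 9 counts in M5, against 78 and 68 counts in PBS. Its 14.2-fold difference (log2 fold change -3.83, SE 0.43) had the largest error of the family and rested on those few M5 reads, becoming 8.92-fold without M5 replicate 1 and 36.7-fold without M5 replicate 2. KLK13 (ENSG00000167759, 51056206 to 51065114), known from squamous mucosa, measured 0.733 and 0.724 FPKM in M5, against 6.48 and 6.55 FPKM in PBS, 8.03-fold lower (log2 fold change -3.01, SE 0.20). Both groups were tight and did not overlap. KLK11 (ENSG00000167757, 51022216 to 51028039), named hippostasin after the hippocampus, measured 0.829 and 0.732 FPKM in M5, against 4.50 and 3.36 FPKM in PBS, 4.53-fold lower (log2 fold change -2.18, SE 0.22). KLK8 (ENSG00000129455, 50996007 to 51002711), neuropsin, differed least, with 1.89 and 2.09 FPKM in M5, against 4.53 and 5.31 FPKM in PBS, 2.22-fold lower (log2 fold change -1.15, SE 0.21).

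KLK10 (ENSG00000129451, 51012739 to 51020175), first described as a gene silenced in breast cancer cells, had the next highest level after KLK5. It measured 11.2 and 11.0 FPKM in M5, against 45.7 and 40.6 FPKM in PBS, 3.49-fold lower (log2 fold change -1.80, SE 0.07). KLK12 (ENSG00000186474, 51029092 to 51035230) was near the limit of detection, with 0 counts in both M5 libraries, against 4 and 0 counts in PBS. The groups overlapped at 0, and no fold is given. KLK9, a chymotrypsin-like member, has no row, and no gene with a row was at 0 in all libraries. On the scale log2(FPKM + 1), which understates changes of low genes, the limma values were -1.54 for KLK6, -1.46 for KLK11, -2.12 for KLK13 and -1.85 for KLK14.

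The order of levels shifted within the family. In FPKM, PBS ran KLK5 (134.6 ± 4.13, SD, n = 2), KLK10 (43.2 ± 3.60), KLK7 (8.03 ± 1.31), KLK13 (6.52 ± 0.0469), KLK8 (4.92 ± 0.552), KLK14 (4.79 ± 0.190), KLK11 (3.93 ± 0.802) and KLK6 (2.32 ± 0.244), and the libraries of KLK8 and KLK14 overlapped. In M5 the first 2 were again KLK5 (14.1 ± 0.0527) and KLK10 (11.1 ± 0.125), followed by KLK8 (1.99 ± 0.141), KLK7 (1.18 ± 0.122), KLK11 (0.780 ± 0.0685), KLK13 (0.728 ± 0.00601), KLK14 (0.609 ± 0.140) and KLK6 (0.142 ± 0.125), and the libraries of KLK11 and KLK13 overlapped. KLK8 thus stood at rank 3 in M5 and at rank 5 in PBS. Of the summed FPKM, KLK5 made up 45.7% and 46.2% in M5 and 64.4% and 64.8% in PBS. KLK10 made up 36.5% and 36.1% in M5 and 21.4% and 20.0% in PBS, and KLK8 6.15% and 6.84% in M5 and 2.12% and 2.61% in PBS.

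**Figure D2:**
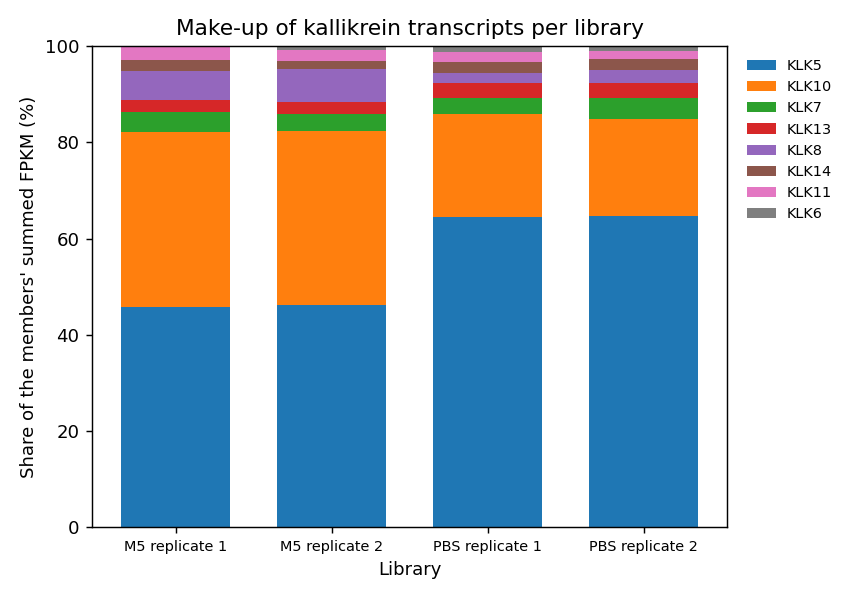
Share of the members' summed FPKM (percent) held by each of 8 kallikreins in the 2 M5 and 2 PBS libraries; KLK12, at most 0.0668%, is not drawn. KLK5 holds 45.7% and 46.2% of the M5 bars and 64.4% and 64.8% of the PBS bars, while KLK10 and KLK8 hold more of the M5 bars.

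Overlapping transcripts limit a few of these values. In GENCODE 29, 40.1% of the exonic bases of KLK8 and 93.7% of those of KLK9 also lie in AC011473.4, a gene on the same strand that spans both, which had no row. The stated library kit keeps no strand information, and opposite-strand exons cover 12.2% of KLK5, 20.3% of KLK6, 6.23% of KLK10 and 9.04% of KLK12, and 0% of KLK7, KLK8, KLK11, KLK13 and KLK14. The antisense gene over KLK5 and KLK6, AC011483.2, had 0 and 3 counts in M5, against 4 and 3 counts in PBS. A second antisense gene, AC011483.1, runs from KLK6 past KLK8 and was picked out after its values were seen. It had 10 and 4 counts in M5, against 24 and 26 counts in PBS (log2 fold change -1.91 without a low-value filter, edgeR adjusted p = 0.0165). In GENCODE 29 its exons overlap those of no member.

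The remaining kallikreins were close to silent. KLK1, tissue kallikrein, had 14 and 19 counts in M5, against 29 and 27 counts in PBS, and did not pass without the filter (log2 fold change -0.86, SE 0.36, edgeR adjusted p = 0.135). KLK4 had 0 counts in M5 and 0 and 2 in PBS, KLK15 had 0 in M5 and 1 and 0 in PBS, and KLK2 and KLK3, the prostate kallikreins, had no row. Of the 20 nearest genes with a row on the flanks, 10 on each side and up to 328 kb away, 5 were tested. Among them EMC10, a membrane protein insertion subunit, and JOSD2, a deubiquitinase, rose with M5 by log2 values of 0.48 (SE 0.08) and 0.41 (SE 0.11), with edgeR adjusted p = 7.2e-05 and 0.00272, and the JOSD2 call was lost with TPM scaling. ETFB, an electron transfer flavoprotein subunit, fell by 0.90 (SE 0.18, edgeR adjusted p = 0.000303). ETFB averaged 0.843 FPKM in M5 and entered the test through its PBS libraries, so its p-value is descriptive. The gene closest to the members, CTU1, a tRNA-modifying enzyme 13.4 kb past KLK14, had 360 and 363 counts in M5 and 362 and 331 in PBS, and its log2 value of -0.07 (SE 0.12) did not pass (edgeR adjusted p = 0.645). The remaining tested gene, ENSG00000268520, had 10 and 9 counts in M5, against 20 and 17 counts in PBS. Its log2 value of -1.08 (SE 0.50), near that of KLK8, did not pass (edgeR adjusted p = 0.0757). ENSG00000268520 lies within ETFB on the same strand, so the lower values of both come from the same locus.

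**Figure D3:**
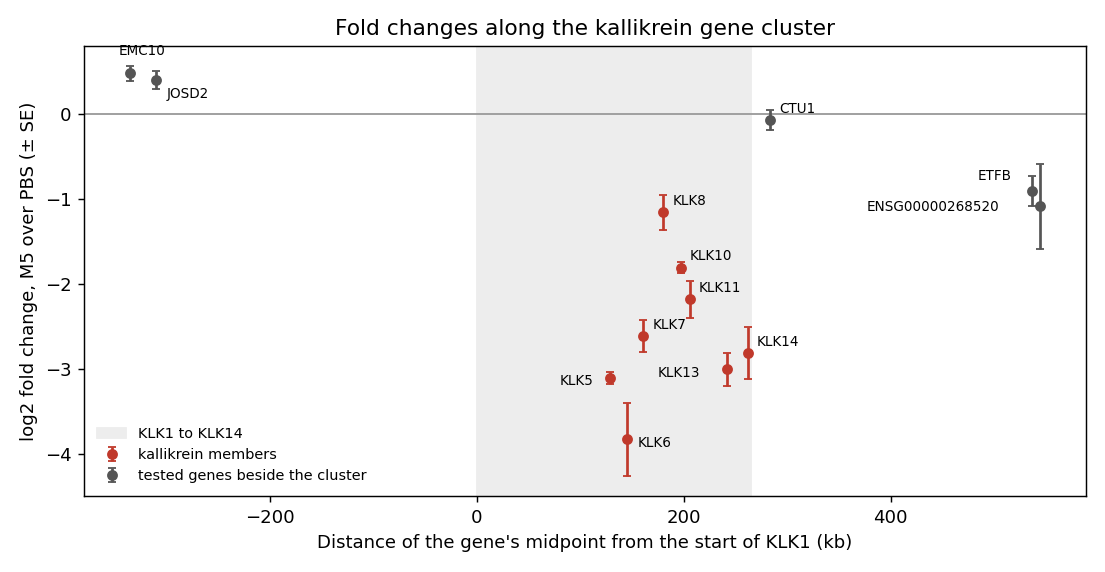
Log2 fold change (M5 over PBS, ± SE) of tested genes against the distance of their midpoint from the start of KLK1 in kb; red points are kallikreins, grey points are flanking genes, and the shaded band runs from KLK1 to KLK14. The kallikreins lie between -1.15 and -3.83, and beyond KLK14 CTU1 lies at -0.07, ETFB at -0.90 and ENSG00000268520, within ETFB, at -1.08.

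The genes that act with kallikreins moved in both directions. Of 55 such genes in 6 lists, 27 were tested, of which 18 rose and 7 fell, where 28.8% of all tested genes rose and 27.1% fell. The median log2 fold change of the 27 was 0.63, beside -0.01 for all tested genes. Since the lists were chosen with earlier results of these data known, these counts and the median only describe them. The p-values of their genes below carry the same limit. PLAT, SPINK6 and ABCA12 averaged 0.379, 0.156 and 0.525 FPKM in PBS, and SPINK5 averaged 0.744 FPKM in M5. These genes entered the test only through the group where they were higher, so their p-values and their part in the counts are descriptive. The balance of all called genes differed between scalings. Of these 51.5% were higher in M5 with TMM, the scaling used here, which takes most genes as unchanged, 32.7% with library totals and 29.7% with TPM scaling, and the median of all tested genes was -0.17 with totals and -0.20 with TPM scaling.

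Of 13 inhibitors, 5 were tested, and 3 rose and 1 fell. SPINK5, which encodes LEKTI, had 63 and 75 counts in M5, against 303 and 248 counts in PBS, and fell by 2.13 on the log2 scale (SE 0.19, edgeR adjusted p = 1.26e-08). SPINK6, an epidermal inhibitor of KLK5, KLK7 and KLK14, had 113 and 113 counts in M5, against 3 and 0 counts in PBS, a ratio of 68.9 (exact Clopper-Pearson 95% interval 23.3 to 337, counting error only). Its edgeR adjusted p was 5.37e-09 and the groups did not overlap, but the fitted log2 value of 6.00 was 9.78 without PBS replicate 1, where 0 PBS counts remain, and 5.05 without PBS replicate 2. SPINT1 and SPINT2, Kunitz inhibitors of membrane serine proteases, rose by 0.63 (SE 0.06) and 0.37 (SE 0.07), with edgeR adjusted p = 1.57e-08 and 0.000236, and the SPINT2 call was lost in limma on FPKM. SERPINB6 had a log2 fold change of -0.11 (edgeR adjusted p = 0.124).

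All 4 tested activating proteases rose. PLAU, urokinase, had 16013 and 17111 counts in M5, against 1376 and 1442 in PBS, higher by 3.43 on the log2 scale (SE 0.06, edgeR adjusted p = 2.44e-19). PLAT, tissue plasminogen activator, rose by 3.83 (SE 0.16), PRSS8, prostasin, by 1.04 (SE 0.08) and ST14, the membrane protease matriptase, by 0.50 (SE 0.06), each with an edgeR adjusted p of at most 8.35e-07. Plasmin, which urokinase and the tissue activator release, and matriptase have both been found to activate kallikrein precursors. PLG itself, the plasminogen gene, had no row.

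Substrates and the receptor differed from one another. FLG, encoding profilaggrin, had 373 and 267 counts in M5, against 3051 and 3413 in PBS, and fell by 3.46 (SE 0.11, edgeR adjusted p = 1.77e-15). IL1B, whose precursor KLK7 can cut, rose by 4.69 (SE 0.07, edgeR adjusted p = 2.23e-20), with 25065 and 28311 counts in M5, against 976 and 910 in PBS. SMPD1, acid sphingomyelinase, rose by 1.04 (SE 0.20, edgeR adjusted p = 0.000208). DSG2, a desmoglein, had a log2 fold change of 0.14 (SE 0.05) that passed narrowly (edgeR adjusted p = 0.0257), did not pass without PBS replicate 1 (0.17) or PBS replicate 2 (0.11) or with a minimum mean of 5 FPKM, and turned negative with library totals, TPM scaling and limma. The desmosomal cadherins of the upper epidermis were hardly transcribed. DSG1 had 0 counts in M5 and 2 and 1 in PBS, DSC1 had 0 in M5 and 7 and 2 in PBS, and CDSN, corneodesmosin, had no row. F2RL1, which encodes PAR2, had 2659 and 3216 counts in M5, against 1093 and 1050 in PBS, and rose by 1.32 (SE 0.07, edgeR adjusted p = 1.09e-11). F2R, the thrombin receptor, had a log2 fold change of 0.12 (edgeR adjusted p = 0.29).

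**Figure D4:**
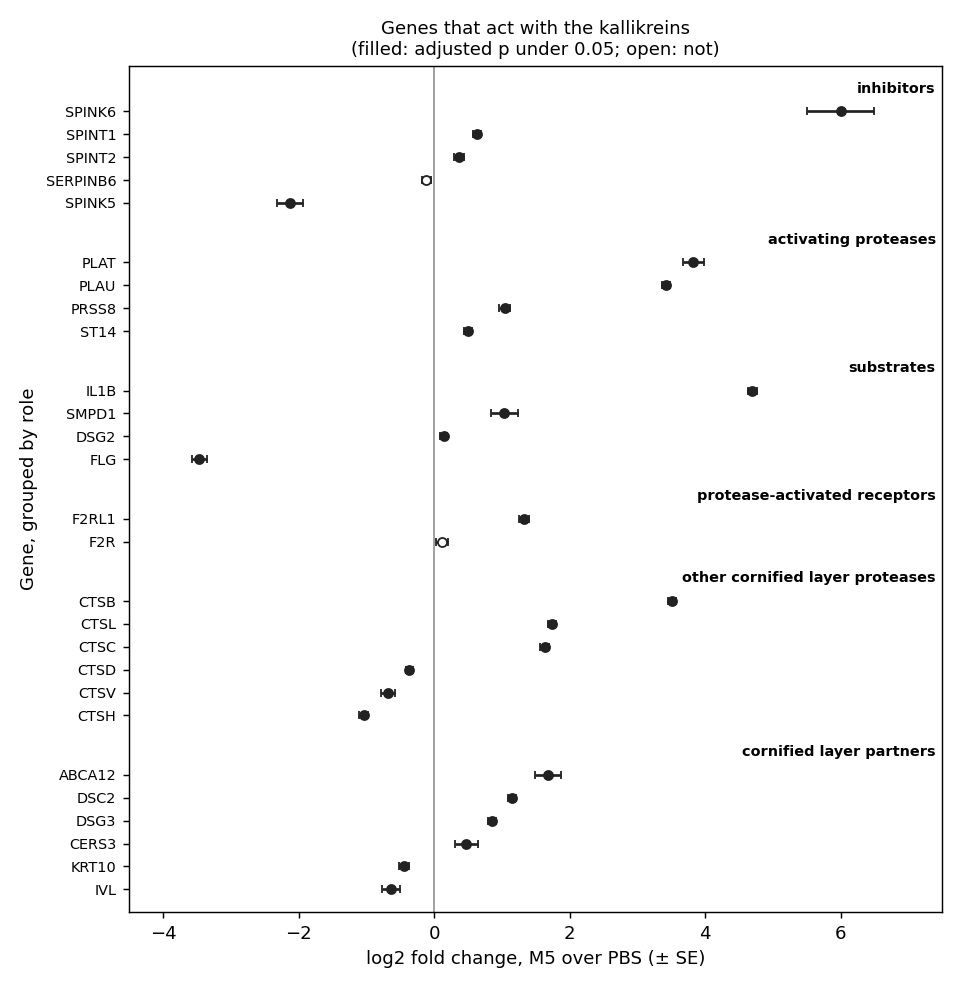
Log2 fold change (M5 over PBS, ± SE) of the 27 tested genes that act with kallikreins, grouped by role; filled points passed an adjusted p of 0.05 and open points did not. SPINK5 and FLG lie at -2.13 and -3.46, while SPINK6, PLAU, PLAT, IL1B and CTSB lie above 3.

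Of the other proteases of the cornified layer, 3 of 6 tested rose and 3 fell. Of the cysteine cathepsins, CTSB, CTSL and CTSC rose by 3.51 (SE 0.06), 1.74 (SE 0.06) and 1.63 (SE 0.06). CTSH, an aminopeptidase, and CTSV, a cathepsin L relative, are also cysteine cathepsins and fell by 1.04 (SE 0.07) and 0.68 (SE 0.10). CTSD, an aspartic protease, fell by 0.36 (SE 0.06). CTSB had 50265 and 53077 counts in M5, against 4255 and 4024 in PBS, and all 6 had an edgeR adjusted p of at most 2.65e-05. Of 6 tested partners in cornification, 4 rose and 2 fell. ABCA12, a lipid transporter, rose by 1.68 (SE 0.19), the desmosomal cadherins DSC2 and DSG3 by 1.15 (SE 0.06) and 0.85 (SE 0.06) and CERS3, a ceramide synthase, by 0.48 (SE 0.17, edgeR adjusted p = 0.0253). The CERS3 call was lost without PBS replicate 1 (0.42) or M5 replicate 2 (0.40), and with DESeq2, library totals, TPM scaling and limma. The envelope precursor IVL fell by 0.64 (SE 0.14) and the keratin KRT10 by 0.45 (SE 0.07), and the 5 called partners other than CERS3 had edgeR adjusted p of at most 0.000629. KRT1, the pair of KRT10, was under the filter, with 0 counts in both M5 libraries, against 44 and 76 counts in PBS.

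Likeness over the 4 libraries was measured by Euclidean distance of mean-centred log2(CPM + 0.5). CPM here are counts scaled by the library's total in tested genes, adjusted by TMM. The tested genes most like KLK5 were PTGS1, a cyclooxygenase, at 0.144, CACNG4, a calcium channel subunit, at 0.145, and RAB7B, a small GTPase, at 0.168. For KLK7 they were ANKRD2, an ankyrin repeat protein known from muscle, at 0.163, SLC1A3, a glutamate transporter, at 0.182, and ZNF704, a zinc finger protein, at 0.218. Among pairs of tested members, KLK10 and KLK11 were closest, at 0.262, then KLK7 and KLK14 at 0.348 and KLK5 and KLK13 at 0.351. The added 0.5 shrinks the differences of genes with low CPM. This likeness is a description over 4 libraries. PTGS1 averaged 0.969 FPKM in M5 and 9.10 FPKM in PBS, a log2 fold change of -3.08.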

How the data were processed

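Polyadenylated RNA of HaCaT cells was sequenced in 4 libraries, grouped by title. For each library the authors deposited counts and FPKM of 27356 Ensembl genes, per the file headers. HISAT2, HTSeq 0.13.5 and GRCh38 appear, without roles, in the submitters' processing notes. The sources used here give no annotation release, strand setting or rule for multi-mapping reads. The deposited FPKM follow from the counts and each library's total with 1 length per gene.

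Counts were tested with edgeR 4.0.16 (glmQLFit and glmQLFTest, two-sided, TMM scaling, R 4.3.3) on the 10809 genes whose FPKM averaged 1 or more over the libraries, with Benjamini-Hochberg adjustment over all of them. Genes with an adjusted p under 0.05 are said to rise or fall. SE is the absolute log2 fold change over the root of its F statistic. Levels and SDs are over 2 libraries. The step was tested on counts simulated with many seeds: nearly all 2-fold and larger changes were called, 1.5-fold changes less often, and the share of false calls averaged under the adjusted p threshold but exceeded it with some seeds. Only a small share of genes was changed, all averaging over 25 counts. The simulation therefore cannot give the share of false calls where many genes change, as here. The alternatives were DESeq2 1.42.0, limma 3.58.1 on log2(FPKM + 1) or log2(FPKM + 0.1), other scalings and filters, a replicate block and each library left out. In 1 library, 3 counts are 0.152 to 0.189 CPM by the plain library total. Floors and intervals cover counting error only. Replicates were not copies of 1 library: over genes with at least 25 counts in the pair, a minimum set after the data were seen, their median chi-square per gene was 1.52 in M5 and 0.988 in PBS, and sampling alone gives 0.455.

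Members and gene lists were chosen with earlier results of these data known. Named genes were the members, the other kallikreins, each tested gene of the 6 lists or the flanks that passed, and the 3 genes nearest to KLK5 and to KLK7. Genes outside this rule, such as those under the filter or not called, were named after their values were seen. Positions are from GENCODE 29 on GRCh38, and the authors' annotation differed from it. For KLK13 the deposited FPKM imply 2587 bases, against 2007 exonic bases in GENCODE 29. The overlap shares given above need not hold for the deposited counts.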

Additional observations from a re-analysis of the deposited data

How the results depend on the processing

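All 98 alternative values of the 8 tested kallikreins kept their direction. At least 2-fold lower were 8 members in the main test and 7 in limma on log2(FPKM + 1), where KLK8 stood at -0.98, and under a minimum mean of 5 FPKM only 2 members, KLK5 and KLK10, were tested, both lower. Of 355 alternative values of the other 28 called genes, 4 reversed, all for DSG2: -0.0094 with library totals, -0.040 with TPM scaling, and -0.0062 and -0.0063 in limma with pseudocounts of 1 and 0.1; 13 more lost the call. SPINK6 moved to 9.78 without PBS replicate 1 (against 0 counts, so dependent on the prior count) and 5.05 without PBS replicate 2. In limma on log2(FPKM + 1), SPINK6 stood at 3.21, PLAT at 2.09, SPINK5 at -1.40 and ABCA12 at 0.73. Of the flanking genes, 2 rose and 1 fell in the main test. With the minimum of 5 FPKM, 1 rose and 0 fell; with TPM scaling 1 rose and 2 fell; with library totals 2 fell and in both limma fits 3 fell. Over all genes, 3114 rose and 2929 fell; 4492 fell with library totals, 2011 rose and 4767 fell with TPM scaling, and 2010 and 2005 rose in limma with pseudocounts of 1 and 0.1; these scalings shift the median of all genes. No label pairs the replicate numbers, same-numbered deviations had a correlation of -0.021, and with a replicate block 6093 genes were called, against 6043 without it, with 18 higher and 7 lower in the 6 lists in both fits. At this depth KLK4, KLK12 and KLK15 were too low to compare.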
